A study of Mus musculus with 27 samples.

Results

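Collagens were followed through fetal brain development in 3 mouse strains. The gene read-count table listed 55416 genes, and the collagen genes were the 44 whose symbol consisted of Col, a number, the letter a and a second number, such as Col1a1. Of these, 41 had at least 1 read in every library. The libraries came from whole brains of female fetuses of the strains AKR/J and C57BL/6J and of B6.Cg-Cav1tm1Mls/J mice, here called Cav1-null because the gene for caveolin 1 is disrupted in every cell. AKR/J and Cav1-null mice are short-lived and C57BL/6J mice are long-lived, and the study compared the short-lived strains with C57BL/6J. Brains were taken at day (d) 12, at d15 and at d17 of gestation, with the day of the vaginal plug as d1, and each of the 9 groups held 3 libraries of poly(A) RNA, 27 in all. The study called the 3 libraries of a group biological replicates, but the litter of each fetus was not given in the sources used here, so p-values measure the spread between these libraries only. The d12 to d15 interval was the early phase and d15 to d17 the late phase.

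Collagens are proteins whose chains wind around each other into a helix and are laid down outside the cell. Fibrillar collagens form the fibres of skin, bone, cartilage, vessel walls and meninges, type IV collagens form the sheet of every basement membrane, and other members decorate fibres, build beaded filaments or stay anchored in the plasma membrane. In the developing brain, collagen surrounds the vessels and lines the pial surface, where radial glial endfeet attach, while a few members such as Col19a1 and Col25a1 are made by neurons. The chains were grouped here as 11 fibrillar, 8 basement membrane and multiplexin, 6 beaded filament, 9 fibril-associated, 4 network and anchoring, 4 transmembrane and 2 other genes.

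Each library held between 26363697 and 39759702 reads on genes. Cav1 itself lay between 9.25 and 39.9 reads per 1000000 reads of the library after scaling (CPM) in AKR/J and C57BL/6J and between 0 and 0.509 CPM in the Cav1-null libraries, as the labels of the strains give it. The libraries AKR/J d15 replicate 2, C57BL/6J d15 replicate 1 and Cav1-null d12 replicate 3 stood apart through transcripts of cartilage: the summed level of 12 cartilage markers, none of them a collagen, was 201, 149 and 100 CPM in them, in that order, against 3.74 to 55.9 CPM in the others. Of these markers, Matn1 was at 0 reads in 13 of the 27 libraries. The same 3 libraries held 44.6 to 116 CPM of skeletal muscle markers, against 8.05 to 26.03 CPM in the others. Values without them are given beside most of the results that they enter. All AKR/J libraries of d12 stood apart as well, through erythroid transcripts at a summed 33255 to 198016 CPM, against at most 5353 CPM in the other d12 groups. Their trophoblast and decidua transcripts were at 780, 79.3 and 36.7 CPM, against 4.55 to 71.9 CPM in the other d12 groups. Of the visceral yolk sac markers, Afp was at 1043, 135 and 15.8 CPM in them, against at most 1.74 CPM in the other d12 groups, and Apob at 269, 21.0 and 2.03 CPM, against at most 0.927 CPM. In whole brains, fewer cells of a type and less collagen RNA per cell cannot be told apart.

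Collagens took a small share of all gene reads, and that share was widely spread between libraries of 1 group. On d12 it was 0.122% ± 0.0137 (SD, n = 3) for AKR/J, 0.183% ± 0.0705 for C57BL/6J and 0.111% ± 0.0917 for Cav1-null brains. By d15 the means were 0.125% ± 0.110, 0.366% ± 0.356 and 0.0535% ± 0.00511, and by d17 they were 0.0623% ± 0.00278, 0.137% ± 0.0951 and 0.0753% ± 0.00514. The highest share of any library was 0.776%, in C57BL/6J d15 replicate 1, and the lowest was 0.0484%, in Cav1-null d12 replicate 2. That same C57BL/6J library held the highest CPM of 25 of the 44 collagens, AKR/J d15 replicate 2 that of 5 and C57BL/6J d12 replicate 2 that of 4.

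Per kilobase of exon, the collagen with the highest median level over the 27 libraries was Col2a1, the chain of type II collagen that is best known from cartilage but is also made by embryonic neuroepithelium, at 8.48 CPM per kb. Col4a1, the main chain of vascular and pial basement membranes, followed at 7.96 and Col9a3, which covers type II fibres, also at 7.96 CPM per kb. Col9a2 stood at 7.10 and Col4a2 at 6.45 CPM per kb. Col1a1, the major chain of bone and skin, ranked 10 at 3.89 CPM per kb, below Col18a1, the source of endostatin, at 4.01 CPM per kb. The lowest medians were those of Col17a1, a hemidesmosome protein of skin, at 0.0794, Col4a3, a chain of kidney and lung basement membranes, at 0.0531 and Col10a1, the marker of hypertrophic cartilage, at 0.0396 CPM per kb. The ranges of neighbours in this order overlapped widely, since the highest library held 24.7 times the lowest for Col2a1 and 539.6 times the lowest for Col1a1. The order pools the days and did not hold on each: on d17 Col2a1 was at 18.6 to 34.5 CPM and Col4a1 at 40.2 to 329 CPM.

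**Figure D1:**
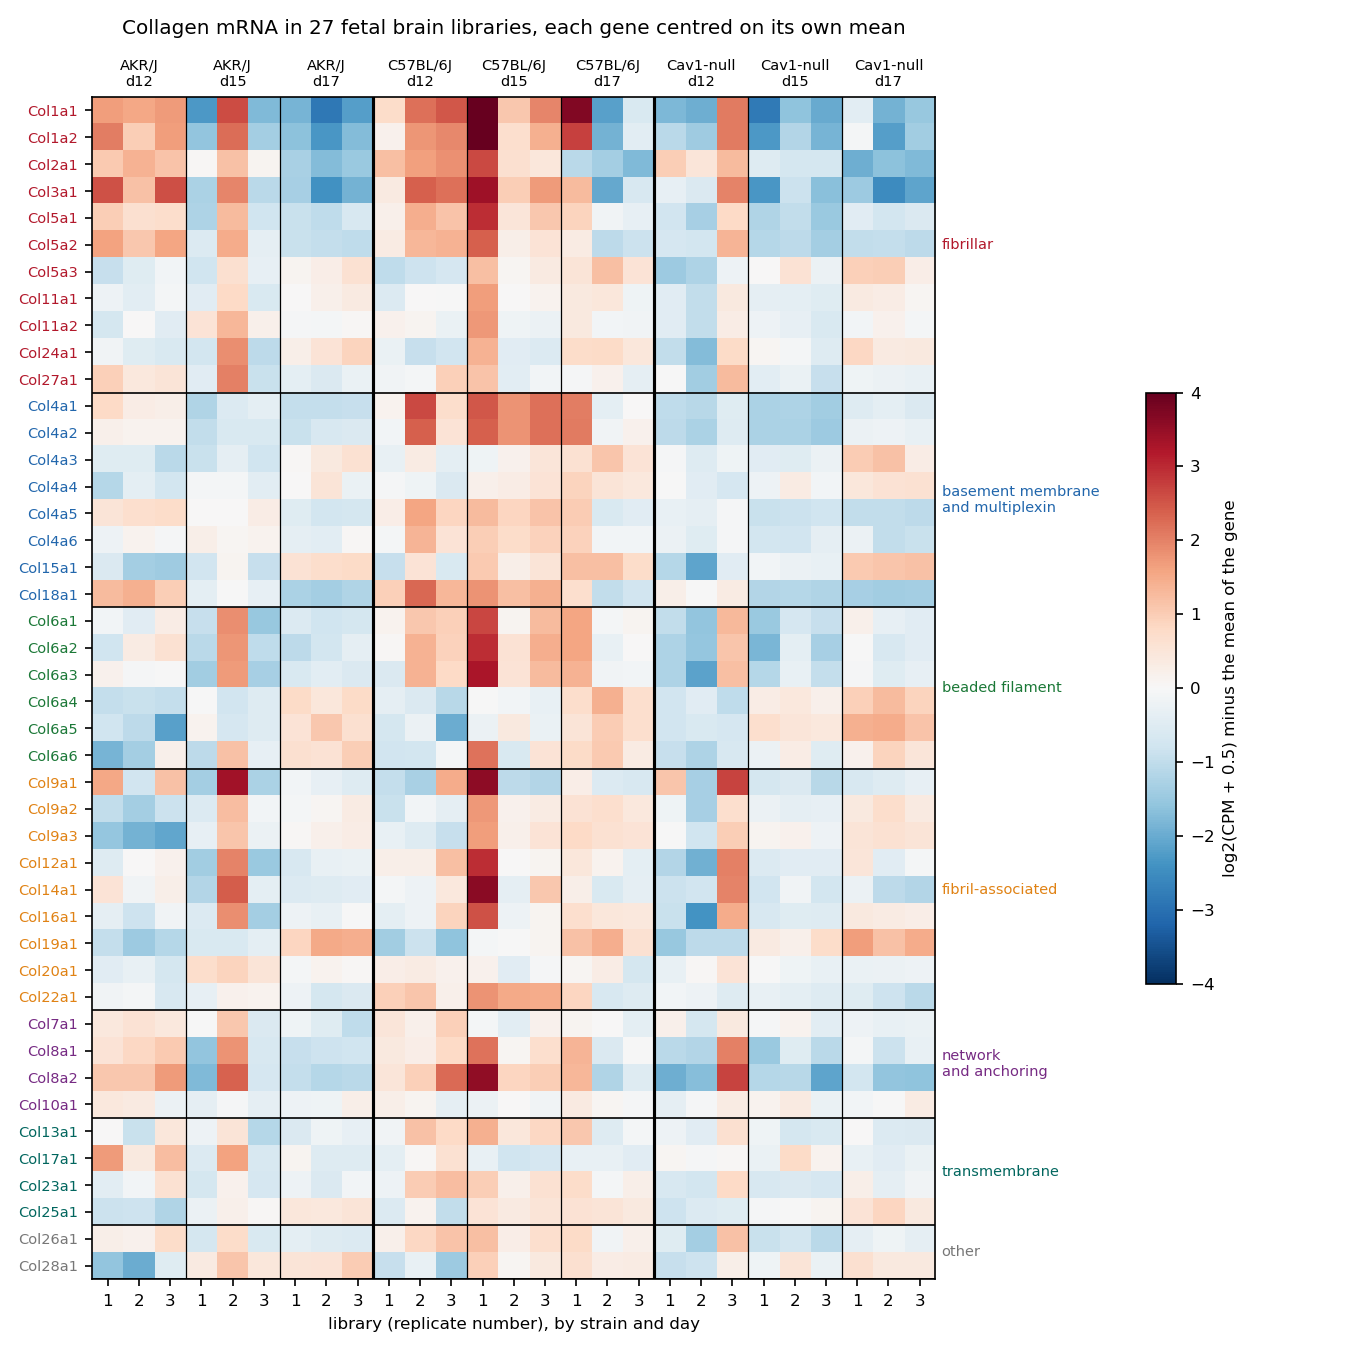
Level of the 44 collagen genes (top to bottom, ordered by role) in the 27 libraries (left to right, ordered by strain and day), as log2(CPM + 0.5) minus the mean of each gene. AKR/J d15 replicate 2, C57BL/6J d15 replicate 1 and Cav1-null d12 replicate 3 stand out from the other libraries of their groups across most fibrillar and fibril-associated genes, while Col19a1 and Col6a4 go from low on d12 to high on d17 in each strain.

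Among the comparisons with C57BL/6J, the sharpest contrast was on d15 with Cav1-null brains. The C57BL/6J libraries of d15 were also deeper, at 37191332 to 39759702 gene reads against 26846313 to 29090743. Globin and mitochondrial genes took 1.31% to 1.38% of these reads in C57BL/6J and 3.49% to 4.08% in Cav1-null. The part of depth and composition was not tested. Of 43 collagens tested, 29 were lower in Cav1-null brains, which is 67.4% of them, where 31.8% of all genes tested were lower. Another 4 were higher, or 9.30%, where 26.8% of all genes were higher. The median log2 fold change was -1.67 over the collagens and 0.03 over all genes. The lower genes included 7 of 11 fibrillar, 6 of 8 basement membrane and multiplexin, 3 of 6 beaded filament, 7 of 9 fibril-associated, 2 of 3 network and anchoring and 3 of 4 transmembrane collagens. Of the 33 calls, 24 held whichever single library was left out, and the number of calls then lay between 26 and 33. Without C57BL/6J d15 replicate 1, 28 were lower, beside 29.6% of all genes, 2 were higher, beside 23.9% of all genes, and the median was -1.05.

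The genes of type I collagen, the most abundant protein of bone, skin and fibrous tissue, differed most in size, with a wide spread between libraries. Col1a1 stood at 127, 115 and 130 CPM in AKR/J on d12, at 7.58, 245 and 11.4 CPM on d15 and at 10.6, 4.99 and 8.12 CPM on d17. In C57BL/6J it stood at 66.0, 185 and 223 CPM on d12, at 2694, 83.4 and 154 CPM on d15 and at 527, 8.45 and 25.6 CPM on d17. In Cav1-null brains it stood at 10.9, 9.92 and 170 CPM on d12, at 5.20, 12.6 and 9.36 CPM on d15 and at 29.5, 10.4 and 13.5 CPM on d17. The Cav1-null and C57BL/6J ranges did not overlap on d15, but 1 C57BL/6J library was far above the other two. On d15 Cav1-null brains were lower by a log2 fold change of -6.73 (SE 1.30, adjusted p = 0.00125), and by -3.66 without C57BL/6J d15 replicate 1. Its partner chain Col1a2 gave -5.06, and -2.78 without that library, and Col3a1, the chain of type III collagen in vessel walls and meninges, gave -3.90 and -2.87.

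Type IV collagen, the core of the basement membrane, differed with far less spread. Col4a1 lay at 136, 96.6 and 92.3 CPM in AKR/J on d12, at 33.7, 54.3 and 59.8 CPM on d15 and at 40.2, 40.2 and 41.1 CPM on d17. The C57BL/6J libraries held 87.7, 490 and 130 CPM on d12, 446, 277 and 362 CPM on d15 and 329, 59.9 and 78.9 CPM on d17. The Cav1-null libraries held 38.3, 36.1 and 55.5 CPM on d12, 32.2, 33.4 and 29.6 CPM on d15 and 55.3, 59.4 and 52.8 CPM on d17. All C57BL/6J libraries of d15 were above every AKR/J and Cav1-null library of any day, whereas on d17 only 1 C57BL/6J library stayed at that height. On d15 the log2 difference between Cav1-null and C57BL/6J was -3.47 (SE 0.16, adjusted p = 6.13e-08), and -3.29 without C57BL/6J d15 replicate 1. Between AKR/J and C57BL/6J it was -2.81 (SE 0.25, adjusted p = 0.000297).

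Col4a2, which assembles with Col4a1 and lies head to head with it on the opposite strand of chromosome 8 (Col4a1 at chr8:11248423-11362826, Col4a2 at chr8:11362471-11499287, GRCm39), ran in parallel. Its levels were 62.5, 60.5 and 60.7 CPM in AKR/J on d12, 27.5, 35.2 and 35.8 CPM on d15 and 29.4, 34.6 and 36.1 CPM on d17. The C57BL/6J levels were 50.7, 285 and 80.4 CPM, then 288, 189 and 252 CPM, then 231, 49.6 and 61.9 CPM over the same days. The Cav1-null levels were 26.3, 22.3 and 38.1 CPM, then 22.3, 22.6 and 19.5 CPM, then 46.3, 47.4 and 44.6 CPM. On d15 the C57BL/6J libraries again did not overlap with those of either other strain, and Col4a2 was lower in Cav1-null by -3.46 on the log2 scale (SE 0.15, adjusted p = 4.48e-08) and lower in AKR/J by -2.82 (SE 0.18, adjusted p = 0.000126). The genes share exon bases amounting to 4.93% of Col4a2, and whether reads were counted by strand was not given. Across the 27 libraries, log2(CPM + 0.5) of Col4a1 and Col4a2 correlated at a Pearson r of 0.986, and at 0.983 over the 24 libraries outside the 3 with the most cartilage transcripts. The points share strain, day and library, so this describes the libraries only.

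**Figure D2:**
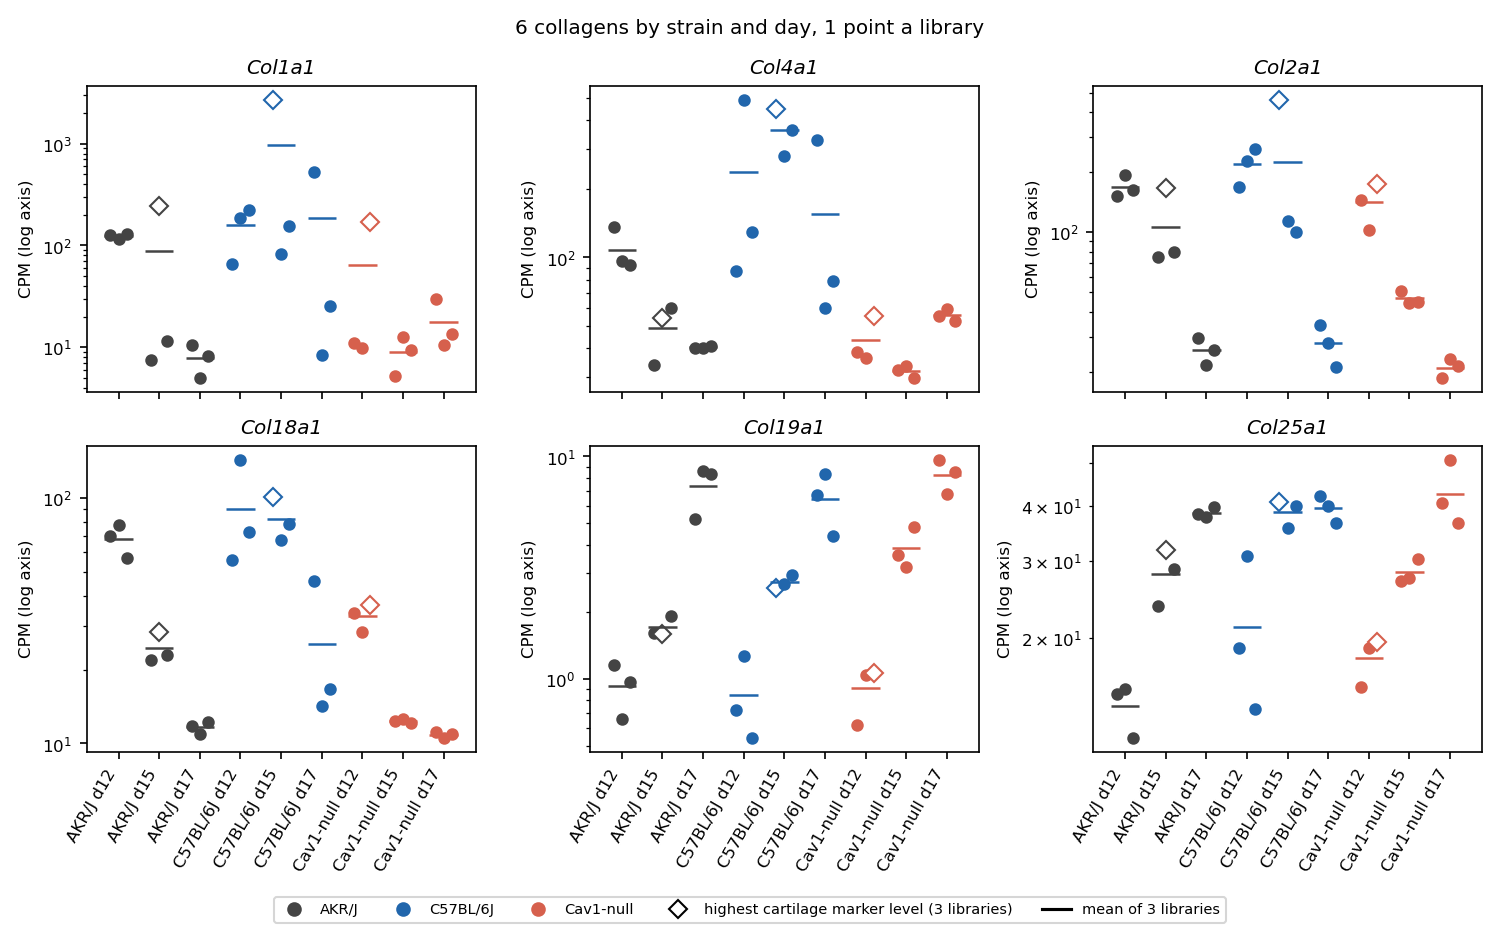
CPM on a log axis of Col1a1, Col4a1, Col2a1, Col18a1, Col19a1 and Col25a1 in each library by strain and day, with the line at the group mean and diamonds for the 3 libraries with the highest cartilage marker level. Col1a1 spans 5.20 to 2694 CPM on d15, on d15 Col4a1 is higher in all C57BL/6J libraries than in those of the other strains, and the days of Col19a1 do not overlap within any strain.

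Other chains of the basement membrane zone were lower in Cav1-null than in C57BL/6J brains on d15 as well. Col18a1 held 69.7, 77.8 and 57 CPM in AKR/J on d12, 21.8, 28.4 and 22.9 CPM on d15 and 11.7, 11.0 and 12.3 CPM on d17. C57BL/6J held 56.1, 143 and 72.4 CPM, then 101, 67.3 and 78.5 CPM, then 45.7, 14.2 and 16.6 CPM. Cav1-null held 33.9, 28.3 and 36.5 CPM, then 12.4, 12.6 and 12.1 CPM, then 11.1, 10.5 and 10.9 CPM. AKR/J and Cav1-null thus stepped down between d12 and d15 with no overlap, while the C57BL/6J libraries of d12 and d15 overlapped. The d15 difference from C57BL/6J was -2.69 (SE 0.14) in Cav1-null and -1.68 in AKR/J, or -2.52 without C57BL/6J d15 replicate 1 and -1.81 without AKR/J d15 replicate 2, and 12.7% of the exon bases of Col18a1 lie under exons of its neighbour Slc19a1. Col4a5 and Col4a6, the X-linked chains of smooth muscle and epithelial basement membranes, were lower in Cav1-null by -1.96 and -1.55 and in AKR/J by -0.94 and -0.70 on the log2 scale.

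Endothelial transcripts were also lower in these comparisons of d15. All 11 endothelial markers were above 0 reads in every library, and 10 of 11 were lower than in C57BL/6J on d15 in each of the other strains, with medians of -0.94 in AKR/J and -1.41 in Cav1-null, where 22.3% and 31.8% of all genes were lower. Their summed level was 340 to 428 CPM in the C57BL/6J libraries of d15, 159 to 199 CPM in those of AKR/J and 103 to 130 CPM in those of Cav1-null. On d12 it was 444 CPM in C57BL/6J replicate 2, which held 490 CPM of Col4a1, and 247 to 251 CPM in the other two. On d17 it was 390 CPM in C57BL/6J replicate 1, which held 329 CPM of Col4a1, against 133 and 196 CPM in the others. The Pearson r over 27 libraries of the endothelial level with Col4a1 was 0.92, with Col4a2 0.89, with Col22a1 0.88 and with Col18a1 0.84. With the parietal yolk sac list it was 0.86, 0.80, 0.77 and 0.90 for the same genes, and with pericyte markers 0.84, 0.89, 0.74 and 0.52. The parietal yolk sac list shares Lama1 and Lamb1 with the basement membrane partners, and Sparc made up 498 of its 708 CPM in C57BL/6J d15 replicate 1. The part of these cell types in the type IV and Col18a1 differences was not tested. Pericyte markers were lower for 6 of 10 in both comparisons, with medians of -1.01 in AKR/J and -1.70 in Cav1-null, while 1 was higher in AKR/J and 2 were higher in Cav1-null. Among the higher ones was Rgs5, by 0.36 in AKR/J and 0.61 in Cav1-null.

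Beaded filaments are the thin type VI collagen network around cells, and their classical chains shared the d15 difference. Col6a3 had 16.4, 14.0 and 14.5 CPM in AKR/J on d12, 5.25, 48.5 and 5.44 CPM on d15 and 9.44, 10.6 and 9.66 CPM on d17. In C57BL/6J it had 9.63, 39.1 and 25.8 CPM, then 143, 21.5 and 35.8 CPM, then 38.6, 13.1 and 13.5 CPM. In Cav1-null it had 5.93, 2.94 and 34.3 CPM, then 6.31, 11.6 and 7.32 CPM, then 14.1, 10.2 and 11.5 CPM. The d15 ranges of Cav1-null and C57BL/6J did not overlap, and the log2 fold change was -2.96 (SE 0.63, adjusted p = 0.00224), or -1.72 without C57BL/6J d15 replicate 1. Col6a1 on d15 had 4.33, 8.01 and 6.61 CPM in Cav1-null, 86.7, 14.1 and 32.3 CPM in C57BL/6J and 6.60, 48.6 and 4.22 CPM in AKR/J, and Col6a2 had 3.04, 9.07 and 4.48 CPM, 98.0, 18.5 and 34.1 CPM, and 5.41, 42.2 and 5.73 CPM in the same order. Both were lower in Cav1-null than in C57BL/6J, by -2.78 and -3.15, or by -1.83 and -2.20 without C57BL/6J d15 replicate 1. Col6a1 and Col6a2, neighbours on chromosome 10, had a Pearson r of 0.958 over the 27 libraries (0.932 over 24).

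The other chains of this class behaved differently. Col6a4 was higher in Cav1-null than in C57BL/6J on d15 by 0.59 and Col6a5 by 0.71 (SE 0.27, adjusted p = 0.0436) on the log2 scale. Col6a5 had 1.41, 2.42 and 1.36 CPM in C57BL/6J on d15 and 3.11, 2.65 and 2.48 CPM in Cav1-null, without overlap, but the call held in only 1 of the 6 fits that left out 1 library. Col17a1 was higher by 1.71 (SE 0.53, adjusted p = 0.0189), at 0.488 to 1.52 CPM in Cav1-null and 0.177 to 0.459 CPM in C57BL/6J. Col19a1, a fibril-associated collagen of interneurons, was higher by 0.55. None of the 4 higher calls held in every fit that left out 1 library, and none of the 4 was called as higher without C57BL/6J d15 replicate 3, with a replicate block or in 1 model of all 27 libraries.

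Among fibril-associated collagens, which sit on the surface of fibres, and network formers, the C57BL/6J library with cartilage transcripts weighed heavily. Col12a1, found around tendon and bone, held 19.6, 28.8 and 32.5 CPM in AKR/J on d12, 10.7, 115 and 9.98 CPM on d15 and 18.1, 23.4 and 23.7 CPM on d17. C57BL/6J held 33.8, 33.4 and 66.6 CPM, then 227, 29.1 and 30.9 CPM, then 39.7, 31.7 and 21.6 CPM, and Cav1-null held 12.4, 7.23 and 118 CPM, then 19.3, 20.6 and 20.8 CPM, then 39.8, 20.5 and 27.3 CPM. The 3 libraries with cartilage transcripts held its highest values. The d15 difference between Cav1-null and C57BL/6J was -2.22 (SE 0.69, adjusted p = 0.0187) with all libraries and -0.53 without C57BL/6J d15 replicate 1. Col9a1, a cartilage chain at 51.7 CPM in that library and 1.62 and 1.45 CPM in the other two, changed from -3.14 (SE 1.17) to 0.45 without it.

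Col8a2, a chain of the corneal and vascular hexagonal lattice, held 11.8, 11.8 and 18.4 CPM in AKR/J on d12, 1.23, 29.8 and 3.20 CPM on d15 and 2.50, 2.13 and 2.31 CPM on d17. C57BL/6J held 7.71, 10.9 and 27.6 CPM, then 68.0, 10.1 and 11.0 CPM, then 14.1, 2.04 and 3.63 CPM, and Cav1-null held 1.00, 1.32 and 37.5 CPM, then 2.16, 2.20 and 0.848 CPM, then 3.04, 1.46 and 1.43 CPM. The same 3 libraries were the highest, and on d15 Cav1-null and C57BL/6J did not overlap. That difference was -4.07 (SE 0.77, adjusted p = 0.0011), and -2.56 without C57BL/6J d15 replicate 1.

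**Figure D3:**
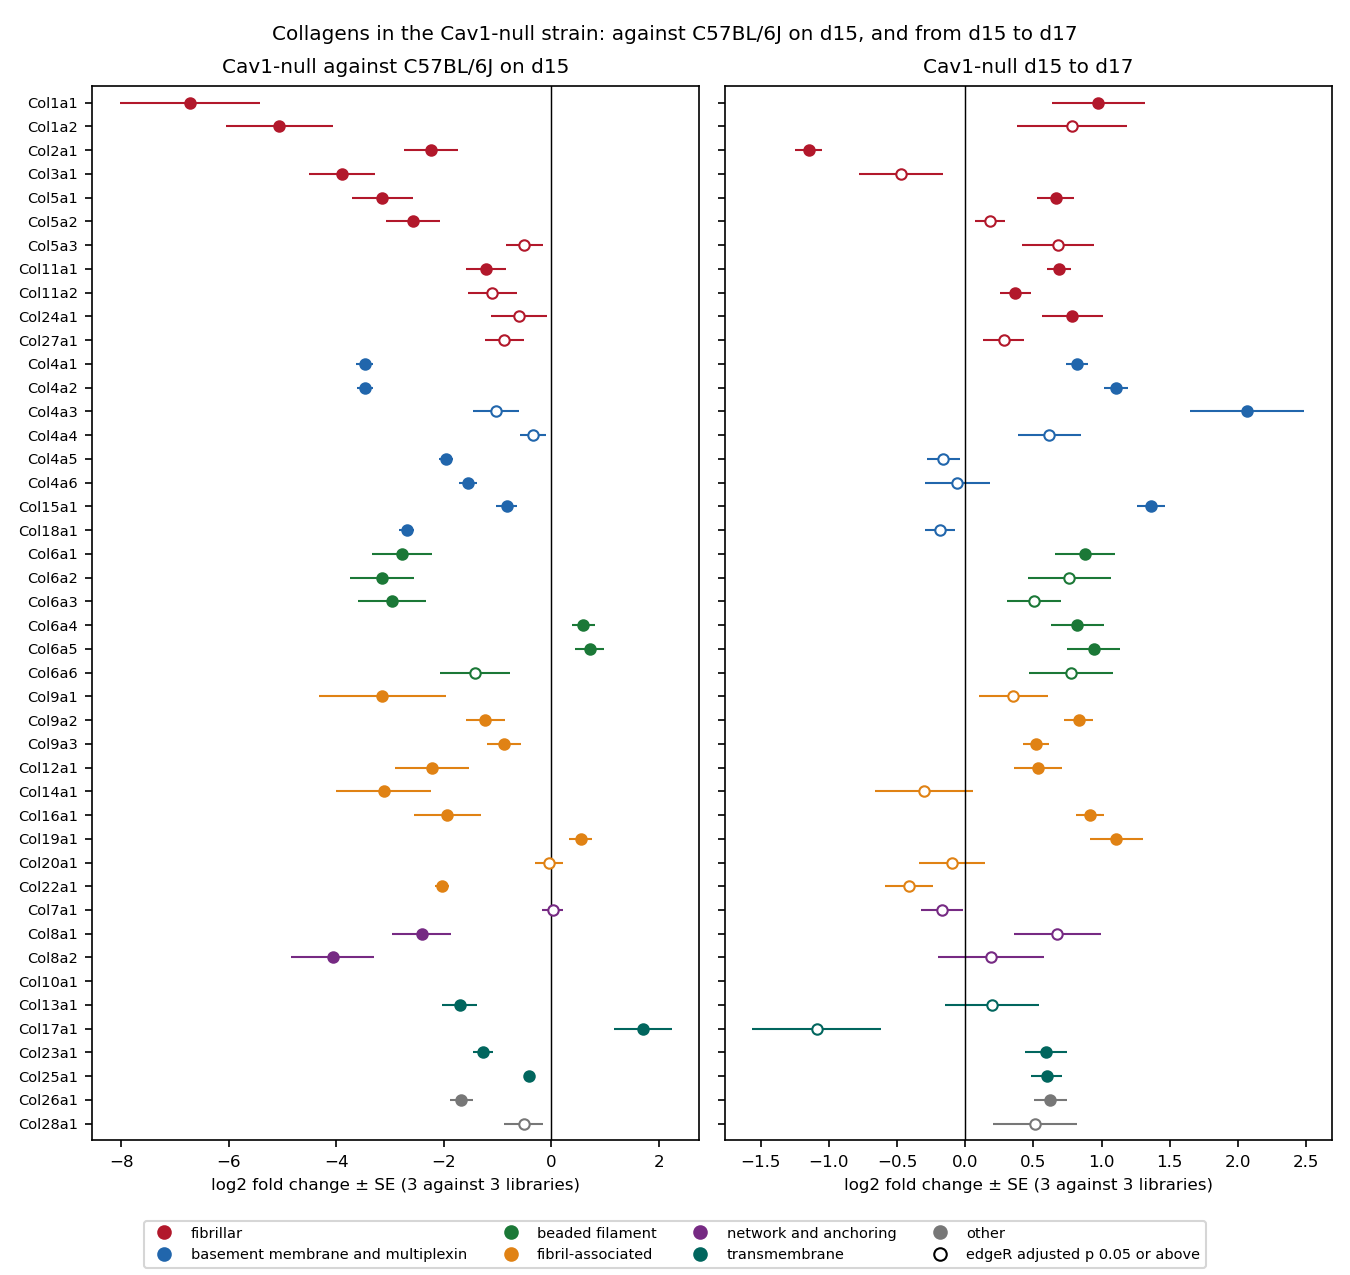
Log2 fold change with its SE for the collagens tested, Cav1-null against C57BL/6J on d15 and Cav1-null d17 against d15, by edgeR. Most genes lie below 0 in the strain comparison and above 0 in the late phase, and the comparisons share the 3 Cav1-null d15 libraries.

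AKR/J brains on d15 showed a narrower difference from C57BL/6J. Of 43 collagens, 11 were lower, or 25.6%, close to the 22.3% of all genes that were lower, and 1 was higher, where 18.8% of all genes were. The lower ones included 7 of the 8 basement membrane and multiplexin genes, namely Col4a1, Col4a2, Col4a3, Col4a5, Col4a6, Col15a1 and Col18a1. None of the 11 fibrillar or 6 beaded filament genes passed the test in edgeR. Col1a1 had a log2 fold change of -3.37 (SE 1.74, adjusted p = 0.16), with AKR/J d15 replicate 2 at 245 CPM inside the C57BL/6J range. Without that library, 23 collagens were lower, beside 21.0% of all genes, and 1 was higher, beside 16.9%. When C57BL/6J d15 replicate 1 was also left out, 26 of 42 were lower, or 61.9%, beside 20.5% of all genes, 2 were higher, beside 13.5%, and Col1a1 stood at -3.60. Leaving out AKR/J d15 replicate 1 or C57BL/6J d15 replicate 3 instead left 6 calls, all lower, beside 16.4% and 17.6% of all genes lower. The gene that was higher in AKR/J was Col20a1, a fibril-associated chain of sparse expression, at 4.37, 5.05 and 3.71 CPM against 2.81, 1.65 and 2.36 CPM in C57BL/6J (log2 fold change 1.01, SE 0.26, adjusted p = 0.0176).

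Few collagens differed between strains on d12 or d17. On d12, AKR/J differed from C57BL/6J in 2 of 43 collagens, both lower, where 14.1% of all genes were lower, and in none higher, where 14.5% were. In the same comparison 10 of 11 erythroid markers were higher in AKR/J and 1 was lower, with Hbb-y at 26064 to 165060 CPM against 917 to 2989 CPM, and Prl8a2, a placental hormone, was at 23.8 to 587 CPM against 0 to 2.41 CPM. Of the neuron and neural progenitor markers, Dcx was at 326 to 413 CPM in AKR/J against 944 to 1482 CPM in C57BL/6J. Map2 was at 557 to 591 against 829 to 1370 CPM and Tubb3 at 344 to 441 against 879 to 1747 CPM. The summed level of the 12 overlapped, at 3651 to 6243 and 5192 to 7595 CPM. Neither the erythroid and placental RNA nor these neuronal differences can be told apart from the strain on d12. Col9a3 had 10.8, 8.33 and 7.17 CPM in AKR/J and 25.9, 22.2 and 16.6 CPM in C57BL/6J, without overlap (log2 fold change -1.16, SE 0.27, adjusted p = 0.018). Col22a1, a collagen of tissue junctions, had 8.99, 9.38 and 6.10 CPM against 19.7, 22.1 and 11.5 CPM, also without overlap (-0.97, SE 0.31, adjusted p = 0.0465). No collagen passed without AKR/J replicate 3, C57BL/6J replicate 1 or C57BL/6J replicate 2, where 7.48%, 8.00% and 0.122% of all genes passed, 1 passed without AKR/J replicate 1, beside 6.80% of all genes, and 4 passed without C57BL/6J replicate 3, beside 28.1%. Between Cav1-null and C57BL/6J on d12, edgeR called 0 of 43 collagens and no other gene (0% called), although 7 collagens had an unadjusted p under 0.05 and DESeq2 called 5, all lower, beside 7.54% of all genes lower. Without C57BL/6J d12 replicate 3, edgeR called 5, all lower, beside 6.38% of all genes lower.

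On d17 edgeR called 0 of 43 collagens between AKR/J and C57BL/6J, beside 0.742% of all genes, with 19 at an unadjusted p under 0.05 and 8 called by DESeq2, all lower, beside 3.93% of all genes lower. Without C57BL/6J d17 replicate 2 it called 17, all lower in AKR/J, beside 15.1% of all genes lower, and without C57BL/6J d17 replicate 1 it called 2, beside 1.26% of all genes. Between Cav1-null and C57BL/6J on d17 it called 0 of 43, beside 0.0491% of all genes, with 11 at an unadjusted p under 0.05 and 0 by DESeq2. Without C57BL/6J d17 replicate 2 it called 12 lower, beside 9.94% of all genes, and 1 higher, beside 3.71%. The C57BL/6J libraries of d17 were themselves far apart, with replicate 1 at 527 CPM of Col1a1 and 231 CPM of Col4a2 and replicate 2 at 8.45 and 49.6 CPM. Bone markers summed to 238 CPM in replicate 1, against 83.3 and 119 CPM in replicates 2 and 3. Of these markers, Ibsp was at 15.9 CPM, against 0.247 and 0.744 CPM. Cartilage markers were at 11.8, 10.4 and 7.69 CPM in the same order. The part of bone tissue in the d17 values was not tested.

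Between d15 and d17 collagen RNA rose broadly in Cav1-null brains. Of 43 collagens, 20 rose, or 46.5%, where 14.5% of all genes rose, and 1 fell, where 12.8% of all genes fell. The median log2 fold change was 0.60 over the collagens and 0.00 over all genes. Of the 21 calls, 17 held whichever library was left out, and between 17 and 25 collagens were then called. When all 27 libraries were fitted in 1 model, 3 of 44 collagens rose in this phase, beside 1.69% of all genes, and none fell, beside 1.87%. The genes that rose came from most classes: 5 of 11 fibrillar, 4 of 8 basement membrane and multiplexin, 3 of 6 beaded filament, 5 of 9 fibril-associated, 2 of 4 transmembrane and 1 of 2 other collagens, but 0 of 3 network and anchoring collagens.

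Col4a1 rose in that phase by 0.82 (SE 0.08) and Col4a2 by 1.11 (SE 0.09, adjusted p = 2.39e-06) on the log2 scale, from the values given above, with no overlap between days. Col15a1, a multiplexin that links basement membrane to the tissue beneath, rose by 1.36 (SE 0.10, adjusted p = 1.36e-06), from 12.6, 11.7 and 11.0 CPM to 28.5, 30.2 and 31.4 CPM. Col4a3 rose by 2.07 (SE 0.42, adjusted p = 0.00258) at a low level, from 0.349, 0.323 and 0.475 CPM to 1.84, 2.07 and 0.923 CPM. These increases were larger than the spread between replicates. Col1a1 rose by 0.98 (adjusted p = 0.0467), with replicate 1 of d17 at 29.5 CPM, and had a log2 fold change of 0.41 without that library.

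Of the endothelial markers, 1 of 11 rose in the same phase and none fell, with a median of 0.05, and their summed level was 103 to 130 CPM on d15 and 117 to 142 CPM on d17. Pericyte markers rose for 3 of 10 (median 0.15). Cartilage markers rose for 3 of the 7 tested (median 1.33), from a summed 3.78 to 5.16 CPM to 8.27 to 11.3 CPM, and bone markers rose for 1 of 7 (median 0.77), from 54.0 to 64.7 CPM to 63.0 to 98.5 CPM. The part of either in the collagen rise was not tested. Col2a1, the type II chain, moved the other way, from 50.8, 44.4 and 44.8 CPM to 18.6, 23.1 and 21.3 CPM, a fall of -1.15 (SE 0.10, adjusted p = 4.37e-06).

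Col2a1 fell in the late phase in every strain. In AKR/J it went from 152, 193 and 163 CPM on d12 through 75.5, 166 and 79.3 CPM on d15 to 29.4, 21.6 and 25.7 CPM on d17. In C57BL/6J it went from 169, 229 and 262 CPM through 461, 114 and 101 CPM to 34.5, 28.0 and 21.2 CPM, and in Cav1-null from 145, 103 and 175 CPM on d12 to the values above. Every d17 library lay below every d12 and d15 library, in all strains. The late log2 fold change was -2.05 (SE 0.31, adjusted p = 0.00308) in AKR/J, or -1.57 without AKR/J d15 replicate 2, and -2.96 (SE 0.61, adjusted p = 0.0245) in C57BL/6J, or -1.88 without C57BL/6J d15 replicate 1. In the early phase Col2a1 fell in Cav1-null (-1.60, SE 0.18, adjusted p = 0.00076) and had a log2 fold change of -0.71 (SE 0.31, adjusted p = 0.12) in AKR/J.

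A small set of collagens climbed throughout, with low levels on d12. Days were in rising order without overlap in all 3 strains for Col19a1 and Col6a4, 2 of the 43 collagens with a mean of at least 0.5 CPM, where 3.77% of genes at that level did so. In at least 2 strains the same held for 4 collagens, Col25a1 and Col6a5 besides, where 8.79% of genes did so. Falling order without overlap in at least 2 strains was seen for Col18a1 and Col4a5, beside 6.34% of genes, and in all 3 strains for none, beside 2.57%. These counts were at or near the background share or below it.

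Col19a1 had 1.16, 0.659 and 0.966 CPM in AKR/J on d12, 1.60, 1.59 and 1.92 CPM on d15 and 5.25, 8.61 and 8.32 CPM on d17. C57BL/6J had 0.726, 1.26 and 0.540 CPM, then 2.57, 2.66 and 2.92 CPM, then 6.69, 8.30 and 4.37 CPM, and Cav1-null had 0.620, 1.04 and 1.06 CPM, then 3.59, 3.16 and 4.82 CPM, then 9.63, 6.75 and 8.5 CPM. No library of one day overlapped with those of another day of its strain. The log2 rise was 2.13 (SE 0.25, adjusted p = 0.00142) in the late phase in AKR/J, 1.64 (SE 0.33, adjusted p = 0.0279) and 1.31 (SE 0.26, adjusted p = 0.022) in the early and late phases in C57BL/6J, and 2.08 (SE 0.31, adjusted p = 0.00254) and 1.11 in Cav1-null. The C57BL/6J rises held in 2 of the 6 fits that left out 1 library in either phase.

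Col25a1, a transmembrane collagen of neurons that takes part in the innervation of muscle, held 14.9, 15.3 and 11.8 CPM in AKR/J on d12, 23.6, 31.8 and 28.7 CPM on d15 and 38.3, 37.7 and 39.6 CPM on d17. The C57BL/6J libraries held 19.0, 30.7 and 13.8 CPM, then 40.8, 35.5 and 39.9 CPM, then 42.1, 40.0 and 36.5 CPM. The Cav1-null libraries held 15.5, 19.0 and 19.6 CPM, then 27.0, 27.4 and 30.2 CPM, then 40.5, 50.8 and 36.5 CPM. The days of AKR/J and Cav1-null did not overlap, while d15 and d17 overlapped in C57BL/6J. It rose in the early phase by 0.95 (SE 0.20, adjusted p = 0.00996) in AKR/J and 0.64 (SE 0.13, adjusted p = 0.00767) in Cav1-null and in the late phase by 0.47 and 0.60, and on d15 it was lower in Cav1-null than in C57BL/6J by -0.42 (SE 0.09). The Pearson r with the cartilage and endothelial marker levels over the 27 libraries, which differ in strain and day, was -0.33 and 0.00 for Col25a1 and -0.38 and -0.37 for Col19a1. With the levels of bone, choroid plexus and neuron and neural progenitor markers it was 0.64, 0.66 and 0.62 for Col25a1 and 0.60, 0.51 and 0.52 for Col19a1. The collagens most like Col19a1 over the 27 libraries were Col6a4 (r = 0.922), Col6a5 (0.895) and Col25a1 (0.846).

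From d12 to d15 in AKR/J, 5 of 42 collagens rose, or 11.9%, where 14.8% of all genes rose, and 4 fell, or 9.52%, where 14.0% of all genes fell. Beside them, 10 of 11 erythroid, 5 of 7 trophoblast and decidua and 6 of 9 visceral yolk sac markers tested fell and 1 trophoblast and decidua marker rose, and since all AKR/J libraries of d12 held this RNA, its part and that of the day cannot be told apart. Col18a1 fell most, by -1.53 (SE 0.19, adjusted p = 0.00171), followed by Col4a1 (-1.19), Col4a2 (-0.94) and Col4a5, and these values were -1.64, -1.24 and -0.98 without AKR/J d15 replicate 2 for the first 3. The endothelial marker level overlapped between these days, at 146 to 210 CPM on d12 and 159 to 199 CPM on d15, with 2 of 11 markers higher and 1 lower. Col9a3 rose most, from 10.8, 8.33 and 7.17 CPM to 25.2, 69.1 and 27.3 CPM (2.16, SE 0.41, adjusted p = 0.00699, and 1.55 without AKR/J d15 replicate 2), and the days did not overlap. Col20a1 rose by 1.37, from 1.65, 1.91 and 1.32 CPM to 4.37, 5.05 and 3.71 CPM. Library sizes alone in place of the trimmed mean of M-values scaling gave 7 higher, beside 18.0% of all genes, and 1 lower, beside 6.09%, with the median of all genes at 0.46 in place of 0.02. Without AKR/J d15 replicate 2, 2 collagens rose, beside 11.4% of all genes, and 18 fell, beside 10.3%, with the median at -0.82 in place of 0.29 and Col1a1 at -3.74 in place of -0.54. Beside that fall, meningeal fibroblast markers summed to 239 to 703 CPM in AKR/J on d12 and to 104 and 146 CPM in the remaining d15 libraries, and cartilage markers to 27.5 to 55.9 CPM and to 3.74 and 4.29 CPM, and their part was not tested. Of the 9 calls, 5 remained in that fit.

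In the late phase of AKR/J, 6 of 43 collagens rose, where 11.6% of all genes rose, and 4 fell, where 10.4% fell. Col19a1 and Col4a3 rose most (Col4a3 by 2.10), with Col6a5 (1.36), Col6a4 (1.30), Col15a1 (1.19) and Col25a1, and Col2a1 fell most, with Col18a1 (-1.05), Col20a1 (-0.77) and Col4a5 (-0.75). Without AKR/J d15 replicate 2, 15 rose, beside 11.8% of all genes, and 5 fell, beside 11.5%, 9 of the 10 calls remained, and the median moved from -0.75 to 0.39. Bone markers summed to 39.5 and 23.1 CPM in the remaining d15 libraries and to 75.0 to 113 CPM on d17. Cartilage markers summed to 3.74 and 4.29 CPM and to 7.67 to 11.4 CPM, and endothelial markers to 159 and 199 CPM and to 99.4 to 131 CPM. Their part was not tested. Without AKR/J d17 replicate 2 or replicate 3, 4 collagens were called, beside 7.58% and 8.32% of all genes.

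**Figure D4:**
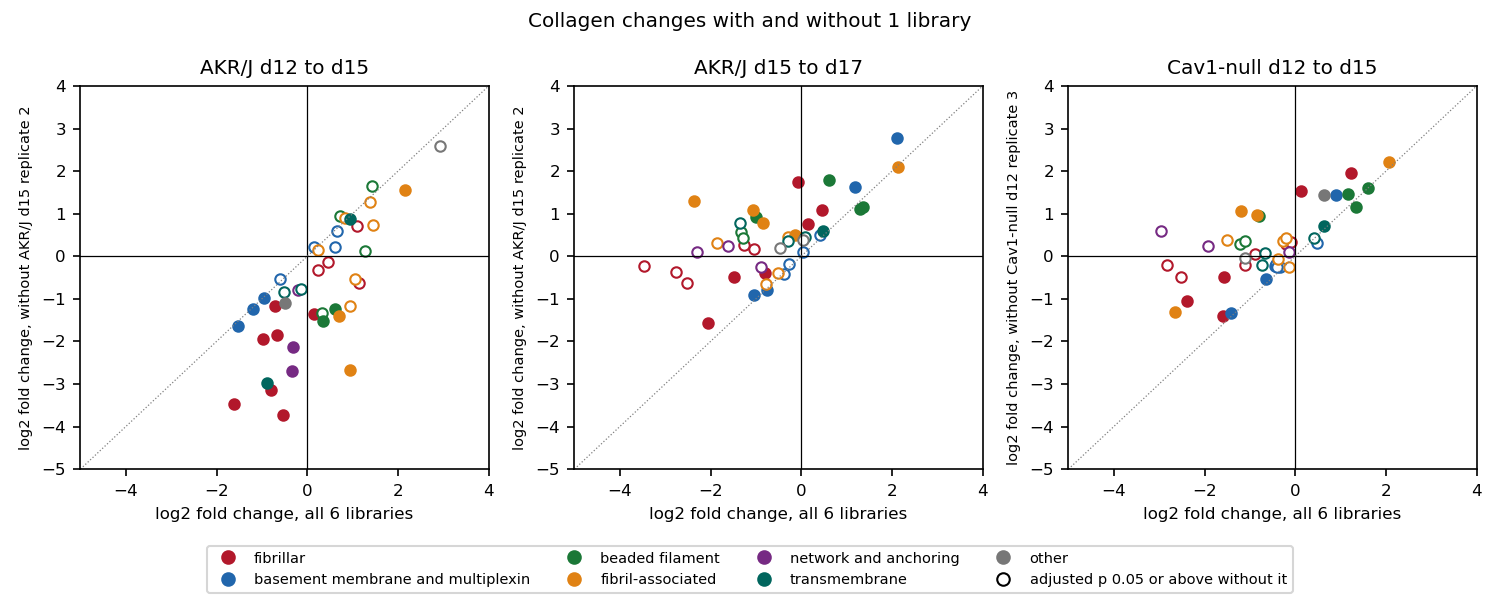
Log2 fold change of each collagen with all 6 libraries (horizontal axis) and without 1 library (vertical axis), for AKR/J d12 to d15 and d15 to d17 without AKR/J d15 replicate 2, and Cav1-null d12 to d15 without Cav1-null d12 replicate 3. The sign changed for 11 of 42, 17 of 43 and 15 of 43 collagens, while Col19a1, Col25a1, Col18a1 and Col4a5 stayed near the diagonal.

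In the early phase of Cav1-null, 4 of 43 collagens rose, where 11.6% of all genes rose, and 4 fell, where 11.8% fell. Col19a1, Col6a5 (1.60), Col6a4 (1.34) and Col25a1 rose, and Col18a1 (-1.41, SE 0.13, adjusted p = 0.000315), Col2a1, Col4a5 (-0.64) and Col3a1 fell. Col3a1 had 49.1, 41.1 and 247 CPM on d12 and 11.9, 33.9 and 19.0 CPM on d15, and its fall of -2.39 (adjusted p = 0.0369) became -1.05 without Cav1-null d12 replicate 3. Its neighbour Col5a2, a chain that regulates fibre width, ran with it over the 27 libraries (r = 0.958) and had 24.1, 23.1 and 101 CPM on d12 and 17.3, 18.4 and 14.6 CPM on d15. Without Cav1-null d12 replicate 3, 12 collagens rose, beside 17.7% of all genes, and 6 fell, beside 18.2%, all 8 calls remained, and the median moved from -0.45 to 0.29. Bone markers summed to 24.5 and 14.8 CPM in the remaining d12 libraries and to 54.0 to 64.7 CPM on d15. Cartilage markers summed to 29.1 and 4.41 CPM and to 3.78 to 5.16 CPM, and endothelial markers to 158 and 149 CPM and to 103 to 130 CPM. Their part was not tested. Without Cav1-null d12 replicate 2, 16 were called, beside 17.1% of all genes, and without d15 replicate 2, 5, beside 11.2%.

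C57BL/6J gave few calls in either phase. In the early phase 3 of 43 collagens rose, where 7.08% of all genes rose, and none fell, where 7.80% fell. They were Col19a1, Col9a3 (1.49, adjusted p = 0.0469, and 0.93 without C57BL/6J d15 replicate 1) and Col5a3, a minor fibrillar chain, which went from 1.2, 1.45 and 1.68 CPM to 7.54, 3.19 and 3.92 CPM without overlap (1.71, SE 0.38, adjusted p = 0.0321). None of the 3 held in every fit that left out 1 library. No collagen was called without d12 replicate 1, where 1.67% of all genes were, or without any of the d15 replicates, and 9 were called without d12 replicate 2, beside 29.8% of all genes. Without d15 replicate 1, 2 or 3, in that order, 0.0303%, 0% and 0.0101% of all genes were called, so few or no genes of the whole table passed in those fits. DESeq2 called 9 with all libraries, beside 25.5% of all genes, and 12 had an unadjusted p under 0.05 in edgeR.

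In the late phase of C57BL/6J, 2 of 43 collagens rose, where 7.46% of all genes rose, and 1 fell, where 5.58% fell. Col19a1 and Col6a4 rose, the latter from 2.13, 1.95 and 1.65 CPM to 3.78, 6.66 and 3.72 CPM (1.36, SE 0.29, adjusted p = 0.0254), and Col2a1 fell. Relative log expression factors gave 2 higher, beside 7.31% of all genes, and 3 lower, beside 6.00%. Library sizes alone gave the same counts, beside 10.6% and 4.87%, and moved the median of all genes from 0.03 to 0.17. Without C57BL/6J d17 replicate 1, 3 rose, beside 15.2% of all genes, and 13 fell, beside 18.0%. None was called without d15 replicate 2 or d17 replicate 3, beside 1.29% and 0.767% of all genes, 1 without d15 replicate 3, beside 3.79%, and 2 without d15 replicate 1, beside 0.969% of all genes higher and 0.798% lower.

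Whether strains differed in the change between days was tested in 1 model of all 27 libraries. By edgeR, 3 of 44 collagens, or 6.82%, passed the test of the interaction of strain and day, where 15.7% of all genes did. Col20a1 (adjusted p = 0.014) changed in the early phase by 1.84 more on the log2 scale in AKR/J than in C57BL/6J and by -0.85 in the late phase. The early AKR/J differences given here use the d12 libraries with erythroid, trophoblast and yolk sac RNA. The part of that RNA was not tested. Col9a3 (adjusted p = 0.0269) differed by -1.73 between Cav1-null and C57BL/6J in the early phase and by 0.68 between AKR/J and C57BL/6J. Without the 3 libraries with the most cartilage transcripts these were -0.54 and 0.63 (adjusted p = 0.0361), and without Cav1-null d12 replicate 3 alone Col9a3 did not pass (adjusted p = 0.0999). Col18a1 (adjusted p = 0.044) differed in the early phase by -1.34 in AKR/J and by -1.28 in Cav1-null, and in the late phase by 0.62 and 1.5, but it did not pass without those 3 libraries (adjusted p = 0.12) and passed in 4 of the 27 fits that left out 1 library, against 22 for Col9a3 and 26 for Col20a1. Without the 3 libraries with the most cartilage transcripts, 7 collagens passed, beside 12.6% of all genes. Leaving out 1 library gave 8 without C57BL/6J d17 replicate 1, beside 24.4% of all genes, and 5 without AKR/J d15 replicate 2 or C57BL/6J d12 replicate 2, beside 14.7% each time. It gave 1 without AKR/J d12 replicate 1 (6.59% of all genes), AKR/J d12 replicate 3 (8.11%), Cav1-null d12 replicate 3 (14.9%), Cav1-null d15 replicate 1 (12.0%) or Cav1-null d15 replicate 3 (11.5%). DESeq2 called 5, beside 22.0% of all genes.

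Col26a1, a secreted collagen of reproductive tissue that is not fibrillar, held 27.4, 25.7 and 38.9 CPM in AKR/J on d12, 14.1, 38.4 and 15.0 CPM on d15 and 17.3, 16.0 and 15.4 CPM on d17. C57BL/6J held 26.3, 41.3 and 51.0 CPM, then 53.9, 27.6 and 37.2 CPM, then 39.4, 20.8 and 26.8 CPM, and Cav1-null held 16.3, 8.66 and 52.2 CPM, then 12.2, 13.6 and 10.5 CPM, then 17.7, 20.3 and 17.8 CPM. On d15 every Cav1-null library lay below every C57BL/6J library, by -1.67 on the log2 scale (SE 0.22, adjusted p = 8.37e-05). It rose in Cav1-null in the late phase by 0.62 (SE 0.12, adjusted p = 0.00177), with no overlap between the days. Col10a1 was at 0 to 0.371 CPM and was tested in no comparison fitted on 6 libraries with the filter on low counts.

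The splice table added a view of Col15a1. It held 163 exon junctions of 37 collagen genes, and among them a short exon in intron 22 of Col15a1 stood out after its values were seen. The exon is 26 bases long, a length that is not a multiple of 3, lies at chr4:47288478-47288503 (GRCm39, plus strand) between the exons numbered 22 and 23 of the 40 of the canonical transcript, inside the intron chr4:47287093-47289333, and is not an exon of GENCODE vM39 with these ends. It is shown with 15 bases of intron on each side, in which the ag and gt of splice sites flank it, and the capitals mark the exon.
Col15a1 exon: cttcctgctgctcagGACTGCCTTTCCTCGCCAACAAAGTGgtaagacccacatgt

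Junction reads from exon 22 either entered this exon or passed over it to exon 23. In C57BL/6J, the 3 libraries of d12 had 1, 1 and 2 reads into the exon and 0, 29 and 4 past it, those of d15 had 2, 7 and 1 into it and 20, 7 and 16 past it, and those of d17 had 19, 10 and 27 into it and 0, 0 and 3 past it. In Cav1-null, the counts into the exon were 0, 0 and 5 on d12, 4, 11 and 6 on d15 and 14, 17 and 13 on d17, and only 1 read, on d12, passed over it. In AKR/J they were 0, 0 and 2 on d12, 16, 0 and 2 on d15 and 9, 5 and 14 on d17, and those past it were 0, 3 and 1, then 0, 7 and 0, then 0, 0 and 1.

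The share of reads into the exon on d15 was thus 18.9% in C57BL/6J (exact binomial 95% interval 9.44% to 32.0%), 72.0% in AKR/J (50.6% to 87.9%) and 100% in Cav1-null (83.9% to 100%). By d17 it was 94.9% (85.9% to 98.9%), 96.6% (82.2% to 99.9%) and 100% (92.0% to 100%). On d12 it was 10.8% (3.03% to 25.4%), 33.3% (4.33% to 77.7%) and 83.3% (35.9% to 99.6%). Single libraries moved these shares: on d15 that of AKR/J was 22.2% (2.81% to 60.01%) without replicate 1 and 100% (81.5% to 100%) without replicate 2, the library with cartilage transcripts, which held all 7 reads past the exon. That of C57BL/6J was 25.8% without replicate 1 and 7.69% without replicate 2. On d12 that of C57BL/6J was 42.9% without replicate 2, that of AKR/J was 66.7% without replicate 2 and 0% (up to 70.8%) without replicate 3, and that of Cav1-null rested on replicate 3 alone. These intervals pool the reads of 3 libraries and cover counting error only, and the reads are few. The study filtered out junctions with multi-mapped reads or short overhangs, so a 0 may stand for missing data. Another Col15a1 junction, chr4:47257270-47258669, had 18, 14 and 0 reads in the Cav1-null libraries of d17. In C57BL/6J d15 replicate 1, a Col1a1 junction had 0 reads and a nearby one 2221. The shares of 100% carry this limit too. An exact permutation test of 3 against 3 libraries cannot go below p = 0.1, and none was used since the exon was chosen for its values. The 7 or more reads past the exon of C57BL/6J d12 replicate 2 and the C57BL/6J libraries of d15 came with endothelial marker levels of 340 to 444 CPM, but AKR/J d15 replicate 2 had 7 past it at 182 CPM, and C57BL/6J d17 replicate 1, at 390 CPM, had none past it. The part of endothelial content was not tested.

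**Figure D5:**
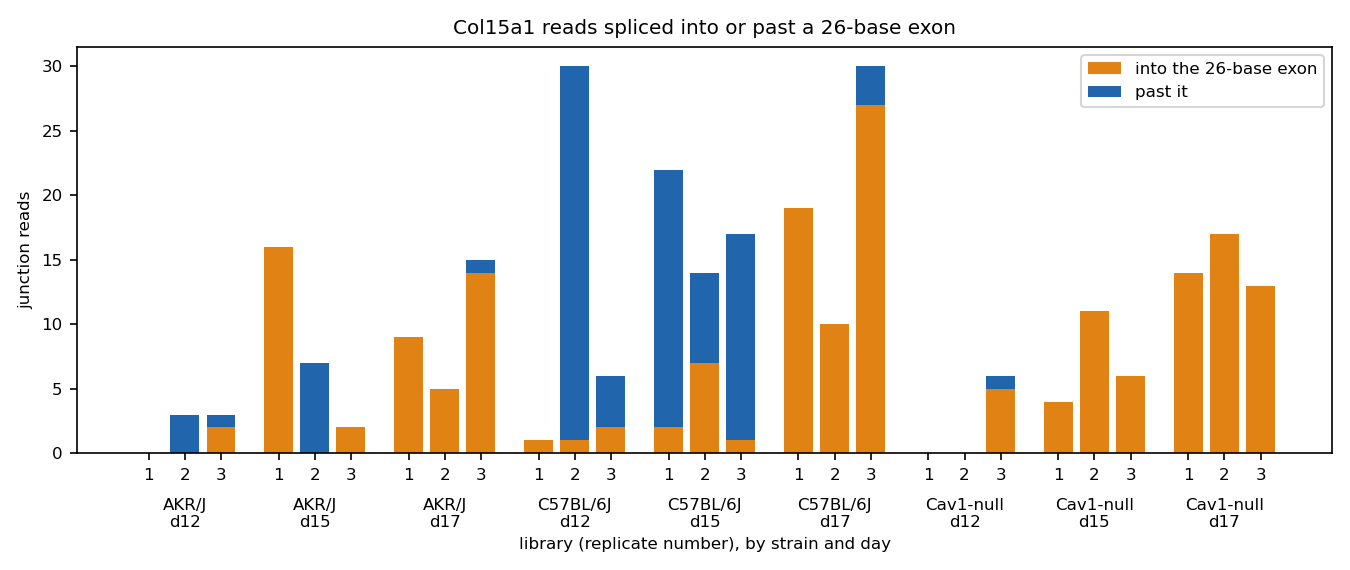
Junction reads of Col15a1 from exon 22 into the 26-base exon and past it, in each of the 27 libraries. Reads past the exon are most frequent in C57BL/6J on d12 and d15, at up to 29 in a library, and the d17 libraries of all strains hold mostly reads into it. A missing bar may stand for reads that the study filtered out.

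The genes that make, bind and remove collagen were read on d15 beside the 31.8% of all genes lower in Cav1-null and the 22.3% lower in AKR/J. Of 30 genes of collagen synthesis and processing, 22 were lower in Cav1-null than in C57BL/6J and 1 was higher (median -1.05), and in AKR/J 5 were lower and 2 higher (median -0.28). The collagen chaperone Serpinh1 was lower in Cav1-null by -2.58 and P4hb, a subunit of prolyl hydroxylase, by -1.15. Of 10 receptor genes, 7 were lower in Cav1-null (median -1.28) and 3 in AKR/J (median -0.15), and of genes of collagen degradation, 7 of 10 were lower and 1 higher in Cav1-null and 4 of 11 lower and 1 higher in AKR/J. Laminins, nidogens and heparan sulphate proteoglycans, the partners of type IV collagen, were lower for 13 of 15 in Cav1-null (median -1.83), with Hspg2 at -3.31 and Lamc1 at -2.45, and for 8 of 15 in AKR/J (median -0.86).

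Adgrg1, the receptor of type III collagen on radial glia whose loss disturbs the pial basement membrane, was measured at 98.2, 146 and 86.7 CPM in AKR/J on d12, at 150, 109 and 191 CPM on d15 and at 96.7, 71.4 and 73.9 CPM on d17. C57BL/6J had 318, 440 and 221 CPM, then 317, 340 and 317 CPM, then 209, 69.4 and 110 CPM, and Cav1-null had 178, 162 and 105 CPM, then 106, 90.2 and 87.3 CPM, then 62.7, 81.3 and 64.6 CPM. The C57BL/6J libraries of d12 and d15 were above all libraries of the other strains on the same day. On d15 it was lower in Cav1-null by -1.74 (adjusted p = 5.1e-08) and in AKR/J by -1.05 (adjusted p = 0.0022), and on d12 in AKR/J by -1.41 (adjusted p = 0.015).

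In the late phase of Cav1-null, when 14.5% of all genes rose and 12.8% fell, 5 of 30 synthesis genes rose and 2 fell, 0 of 10 receptors rose and 3 fell, 3 of 10 degradation genes rose and 1 fell, and 3 of 15 basement membrane partners rose and none fell, with medians of 0.06, -0.10, 0.18 and 0.11. In the strain comparisons of d17, and between Cav1-null and C57BL/6J on d12, none of these 4 lists held a gene that passed the edgeR test, where 0.742% of all genes passed between AKR/J and C57BL/6J on d17 and 0.0491% and 0% between Cav1-null and C57BL/6J on d17 and d12.

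Markers of other cell types were read on d15 beside the 31.8% of all genes lower and 26.8% higher in Cav1-null. Between Cav1-null and C57BL/6J, markers were lower for 8 of 13 meningeal fibroblast, 4 of 7 cartilage, 7 of 8 bone, 1 of 8 skeletal muscle and 2 of 2 trophoblast and decidua genes tested, and none of these lists held a higher one. Lists with calls both ways were parietal yolk sac (7 lower and 1 higher of 9), choroid plexus (5 lower and 1 higher of 10), neurons and neural progenitors (9 lower and 3 higher of 12) and erythroid (2 lower and 6 higher of 11). Surface epithelium had 3 of 9 higher and visceral yolk sac 1 of 7 higher, with none lower. Without C57BL/6J d15 replicate 1, where 29.6% of all genes were lower and 23.9% higher, none of 6 cartilage markers passed, with a median of -0.58 in place of -2.69, and 3 of 8 bone markers were lower, with a median of -0.13 in place of -2.48. In that fit 8 meningeal fibroblast, 10 endothelial and 6 pericyte markers were lower, 2 skeletal muscle markers were higher and 1 lower, and 19 of 30 synthesis, 7 of 10 receptor and 13 of 15 basement membrane partner genes were lower. The meningeal fibroblast level, summed over 13 markers, was 98.5 to 168 CPM in Cav1-null, 140 to 313 CPM in C57BL/6J and 104 to 518 CPM in AKR/J on d15, and bone markers were at 54.0 to 64.7, 95.1 to 297 and 23.1 to 120 CPM. The part of these cell types in the collagen differences was not tested. Between AKR/J and C57BL/6J, 8 of 11 erythroid markers were higher on d15, where 18.8% of all genes were, and 1 was lower, and no cartilage, skeletal muscle or fibrillar collagen gene passed the test.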

How the data were processed

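Whole fetal brain poly(A) RNA of 27 libraries was sequenced by the authors as 150-base read pairs. The deposited gene table holds raw read counts per gene, and the deposited splice table holds read counts per exon junction. The submitters' processing notes name FastQC, cutadapt, fastp, STAR, bedtools, edgeR and GRCm39, with no versions. The counting tool and whether counting used strand are not given in the sources used here.

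The counts were tested with edgeR 4.0.16 in R 4.3.3 (filterByExpr, TMM scaling, quasi-likelihood F test, Benjamini-Hochberg adjusted p under 0.05 over all genes tested) on the 6 libraries compared, in 6 comparisons of days and 6 of strains, and on all 27 libraries for the interaction of strain and day. A collagen is said to differ, rise or fall where it passed. SE is the absolute log2 fold change divided by the square root of F. Levels are CPM, the counts per 1000000 reads of TMM-scaled library size (26363697 to 39759702 gene reads per library). Exon lengths, positions and the exon sequence came from GRCm39 with GENCODE vM39, the build of the files. Gene lists (synthesis, receptors, degradation, basement membrane partners, cell type markers) are described by counts and medians. Figures used Python 3.11.15 and matplotlib 3.10.9. The test was checked on simulated counts.

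The collagens and the lists were chosen with earlier results of these data known. Values by library, on all days or on the days compared, are given for the gene of each class with the highest mean, for 3 neighbouring pairs, and for the largest rise and fall of each comparison; Adgrg1 was named as the receptor of type III collagen, and the short Col15a1 exon was chosen after its values were seen. Alternatives were DESeq2 1.42.0, RLE factors, library sizes alone, no filter on low counts, a replicate block, 1 model of 27 libraries and leaving out each library. Replicate numbers do not pair the libraries. Methylation data of the study were not analysed here.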

Additional observations from a re-analysis of the deposited data

Results flagged for a closer look

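For 3 of 44 collagens, or 6.82%, the strains differed in the change between days by the edgeR test of the interaction between strain and day, which 15.7% of all genes passed. The number fell to 1 when AKR/J d12 replicate 1 or 3, Cav1-null d12 replicate 3 or Cav1-null d15 replicate 1 or 3 was left out. Col20a1 had an adjusted p of 0.014: in AKR/J it stood at 1.65, 1.91 and 1.32 CPM on d12, at 4.37, 5.05 and 3.71 CPM on d15 and at 2.30, 2.75 and 2.57 CPM on d17, while in C57BL/6J all 9 libraries lay between 1.33 and 3.25 CPM. Col9a3 had an adjusted p of 0.0269, with an early change that was lower in Cav1-null than in C57BL/6J by -1.73 on the log2 scale, or by -0.54 (adjusted p = 0.0361) without the 3 libraries with the most cartilage transcripts. Col18a1 had an adjusted p of 0.044, with an early change that was lower than in C57BL/6J by -1.34 in AKR/J and by -1.28 in Cav1-null, and it passed in 4 of the 27 fits that left out 1 library. The early AKR/J values use the d12 libraries with erythroid, trophoblast and yolk sac RNA, whose part was not tested.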

How the results depend on the processing

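Counts of collagens called depended on single libraries in most comparisons. A single count here is followed by the percentage of all genes called in the same fit or fits. A range of counts is followed by the range of percentages over the same set of fits. The ends of the ranges may come from different fits, so the highest count need not go with the highest percentage. Leaving out each library in turn gave 6 to 20 calls in AKR/J early (12.4% to 43.5%), 4 to 20 in AKR/J late (7.58% to 23.3%), 0 to 9 in C57BL/6J early (0% to 29.8%), 0 to 16 in C57BL/6J late (0.767% to 33.2%), 5 to 18 in Cav1-null early (11.2% to 35.9%) and 17 to 25 in Cav1-null late (18.9% to 25.5%). Against C57BL/6J on d12, d15 and d17 it gave 0 to 4 (0.122% to 39.9%), 6 to 24 (28.2% to 37.9%) and 0 to 17 (0.258% to 26.4%) for AKR/J and 0 to 5 (0% to 7.37%), 26 to 33 (49.8% to 53.7%) and 0 to 13 (0.00946% to 13.6%) for Cav1-null, and it gave 1 (6.59% to 14.9%) to 8 (24.4%) for the interaction. With no filter on low counts, calls numbered 7 in C57BL/6J early (8.71%), 7 in C57BL/6J late (8.33%), 18 in Cav1-null early (14.0%), 4 and 11 for AKR/J against C57BL/6J on d12 and d17 (18.2% and 2.51%), 5 for Cav1-null against C57BL/6J on d12 (2.16%) and 11 for the interaction (8.32%). DESeq2 gave 9 in C57BL/6J early (25.5%), 6 in C57BL/6J late (23.0%), 8 for AKR/J against C57BL/6J on d17 (6.58%), 5 for Cav1-null against C57BL/6J on d12 (10.5%) and 5 for the interaction (22.0%). In 1 model of 27 libraries calls numbered 6 in AKR/J late (10.2%), 5 in C57BL/6J early (16.3%), 8 in C57BL/6J late (19.6%), 5 in Cav1-null early (13.1%), 3 in Cav1-null late (3.56%), 7 and 2 for AKR/J against C57BL/6J on d12 and d17 (47.0% and 3.60%) and 6 for Cav1-null against C57BL/6J on d12 (7.44%). RLE factors gave 5 in C57BL/6J late (13.3%) and 1 for AKR/J against C57BL/6J on d12 (28.0%), and library sizes alone gave 5 in C57BL/6J late (15.4%), 3 for AKR/J against C57BL/6J on d12 (23.4%), with the median of all genes at -0.38, and 7 on d15 (44.8%). Without the 3 libraries with the most cartilage transcripts, an alternative chosen after seeing the data, 28 were called for AKR/J against C57BL/6J on d15 (34.1%) and 7 for the interaction (12.6%). The replicate block gave 0 calls in C57BL/6J early (0%), 15 in C57BL/6J late (11.9%), and 7 and 1 for AKR/J against C57BL/6J on d15 and d17 (33.7% and 3.16%), but libraries of the same number correlated between -0.2 and 0.17 across groups, so they share only a number. The cause was not tested.

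Of 101 log2 fold changes that passed, DESeq2 kept 93 past the threshold, RLE factors 100, library sizes alone 92, no filter 95, the replicate block 81 and 1 model of 27 libraries 59. The single change of direction was Col9a1 in Cav1-null against C57BL/6J on d15, at 0.45 without C57BL/6J d15 replicate 1 and as low as -3.70 without C57BL/6J d15 replicate 3. Leaving globin and mitochondrial genes out of the total moved the mean collagen share by more than 1 SD in AKR/J on d12, from 0.122% to 0.143%, where these genes took 7.51% to 20.2% of the reads, and in AKR/J on d17, from 0.0623% to 0.0657%. The share of Col2a1 junction reads that include exon 2 was not computed, since the table used here lists no reads that join exon 1 to exon 3, and so its alternative was not run. Genes under about 1 CPM, such as Col4a3, Col10a1 and Col17a1, rest on few reads.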
